A study of Drosophila melanogaster with 24 samples.

Results

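The male accessory gland of *Drosophila melanogaster* makes most of the seminal fluid proteins that a male passes to a female with his sperm. These proteins raise egg laying, lower the readiness of the female to mate again, keep sperm in her storage organs and restrain proteases in her reproductive tract. The best known of them carry the name Acp, for accessory gland protein, with the place of the gene on the polytene map, and the Mst57D genes are male-specific transcripts of the same gland. Here 10 of these genes were chosen by name, set against the 11982 genes that the annotation of the array pairs with a probe set of their own. They were followed in the males of lines selected for their response to alcohol, with females as background. They are *Acp26Aa*, *Acp26Ab*, *Acp29AB*, *Acp36DE*, *Acp53Ea*, *Acp62F*, *Acp63F*, *Acp76A*, *Mst57Da* and *Mst57Db*. In the annotation of the array, 9 of the 10 were paired with a probe set, 1 each, and all 9 passed the filter on low values, as did 11857 of the 18769 probe sets that are not controls. *Mst57Db* was paired with no probe set and has no value here.

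The 24 arrays measured whole flies of 6 lines drawn from 1 wild population sampled in Raleigh. R1 and R2 were selected for resistance to ethanol, S1 and S2 for sensitivity, and C1 and C2 were kept unselected. Lines with the same number came from the same replicate of the base population. Each line gave 2 pools of males and 2 pools of females, each of 15 virgin flies 3 to 5 days old, at generation 25, reared at 25°C in a 12:12 cycle of light and dark. By the labels, all groups, controls included, met ethanol vapor before RNA was extracted, which the methods for the arrays do not state. If the labels hold, no group shows the level without ethanol. The Signal is a linear intensity of MAS5, the array maker's software, scaled by the authors to the same level on every array. Median Signal was 130.9 to 149.8 on male arrays and 55.7 to 81.0 on female arrays, and log2 Signal correlated at 0.978 to 0.986 between the male pools of a line. A pool holds whole bodies, so fewer accessory gland cells and less RNA per cell cannot be told apart in any value below.

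All 9 genes were high in males and near the bottom of the scale in females. *Mst57Da* lay between 16260 and 24298 in the 12 male pools, with a median of 21756, against 3.92 to 39.8 in the 12 female pools, with a median of 8.37. *Acp62F* was the only gene to reach a Signal of 50, the minimum of the filter, on a female array, and did so on 1 of 12, at 50.8. With female values raised to 50, the male Signal was at least 45.7-fold higher for *Acp29AB* and at least 417.5-fold higher for *Mst57Da*, the lowest and highest bounds among the 9 genes. All 9 were called higher in males at an adjusted p under 0.001 (limma), against 36.0% of all tested probe sets, but a gene that is low in females passes the filter only through the males and had to differ. The Signals of these defining genes of the gland go with the labelled sex in all 24 pools.

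**Figure D1:**
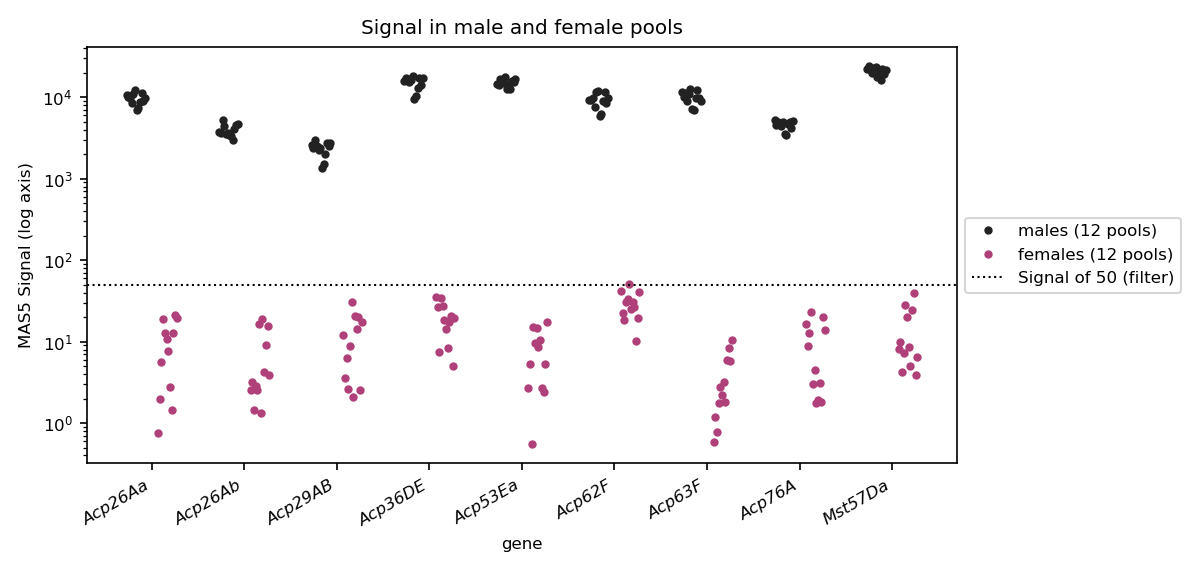
MAS5 Signal on a log axis of the 9 genes in 12 male pools (black, left) and 12 female pools (magenta, right), 1 point per pool. Every male pool lies at or above 1369, and 1 female value, 50.8 for *Acp62F*, lies above the dotted line at 50.

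*Acp26Aa* encodes ovulin, a prohormone-like protein that stimulates ovulation after mating. Its male Signal was 10740 and 10162 in R1, 9686 and 8482 in R2, 11064 and 12220 in S1, 7065 and 7387 in S2, 8645 and 11204 in C1, and 8905 and 9914 in C2. The 2 pools of S2 were the lowest of all, S1 was the highest line, and resistant, sensitive and control pools overlapped. Over selection groups the means were 9768 ± 959 in resistant, 9434 ± 2596 in sensitive and 9667 ± 1162 in control males (SD, n = 4 pools of 2 lines each).

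*Acp26Ab* lies next to *Acp26Aa* on chromosome arm 2L and encodes a short secreted peptide. It had Signals of 3728 and 3663 in R1, 5254 and 4457 in R2, 3587 and 3605 in S1, 3464 and 3358 in S2, 2986 and 4082 in C1, and 4582 and 4644 in C2. Here R2 and C2 were the highest lines. The log2 difference of R1 minus R2 was -0.39 (adjusted p = 0.11) and that of C1 minus C2 -0.40 (adjusted p = 0.127), and neither passed the test (limma). All 4 resistant pools exceeded all 4 sensitive pools, while the control pools, from 2986 to 4644, overlapped both.

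*Acp29AB* encodes a C-type lectin needed for the retention of stored sperm. Its Signal was 2578 and 2417 in R1, 3032 and 2531 in R2, 2258 and 2387 in S1, 1369 and 1529 in S2, 1996 and 2717 in C1, and 2542 and 2719 in C2. Both S2 pools were far below the rest, and S1 also lay under every resistant pool. The means were 2639 ± 270.1 in resistant, 1886 ± 511 in sensitive and 2494 ± 342 in control males (SD, n = 4 pools each).

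*Acp36DE* encodes a glycoprotein that binds sperm and is required for their efficient storage. It had Signals of 15773 and 17098 in R1, 16642 and 15603 in R2, 16216 and 18349 in S1, 9416 and 10479 in S2, 13035 and 17314 in C1, and 14329 and 17111 in C2. Only S2 stood apart, below every other pool, and the S1 pools lay among those of the resistant lines or above them.

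A pair of the genes encode inhibitors of proteases. *Acp62F*, a trypsin inhibitor that reaches the storage organs of the female, had Signals of 9397 and 9144 in R1, 9768 and 7677 in R2, 11530 and 12090 in S1, 5973 and 6317 in S2, 9023 and 11767 in C1, and 8539 and 9876 in C2. S1 was its highest line and S2 its lowest, so that the sensitive lines bracketed all others in their means. *Acp76A*, a serpin, had Signals of 5308 and 4550 in R1, 4962 and 4731 in R2, 4492 and 4960 in S1, 3576 and 3469 in S2, 4645 and 5011 in C1, and 4221 and 5106 in C2. The 10 pools outside S2 overlapped from line to line.

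*Acp63F*, a small secreted protein, had Signals of 11682 and 10130 in R1, 11442 and 9030 in R2, 11132 and 12716 in S1, 7091 and 6922 in S2, 9761 and 12448 in C1, and 9829 and 9081 in C2. Its S2 pools again lay below the other 10. *Acp53Ea*, which sits in a cluster of related genes with *Acp53C14a*, *Acp53C14b* and *Acp53C14c* on arm 2R, had Signals of 14541 and 14163 in R1, 16693 and 14918 in R2, 15522 and 17839 in S1, 12759 and 14378 in S2, 12739 and 15887 in C1, and 15224 and 16958 in C2. *Mst57Da* had Signals of 22240 and 24298 in R1, 21783 and 19959 in R2, 22686 and 23678 in S1, 17801 and 20332 in S2, 16260 and 21998 in C1, and 19261 and 21729 in C2. For *Acp53Ea* and *Mst57Da* no line was clear of the others.

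**Figure D2:**
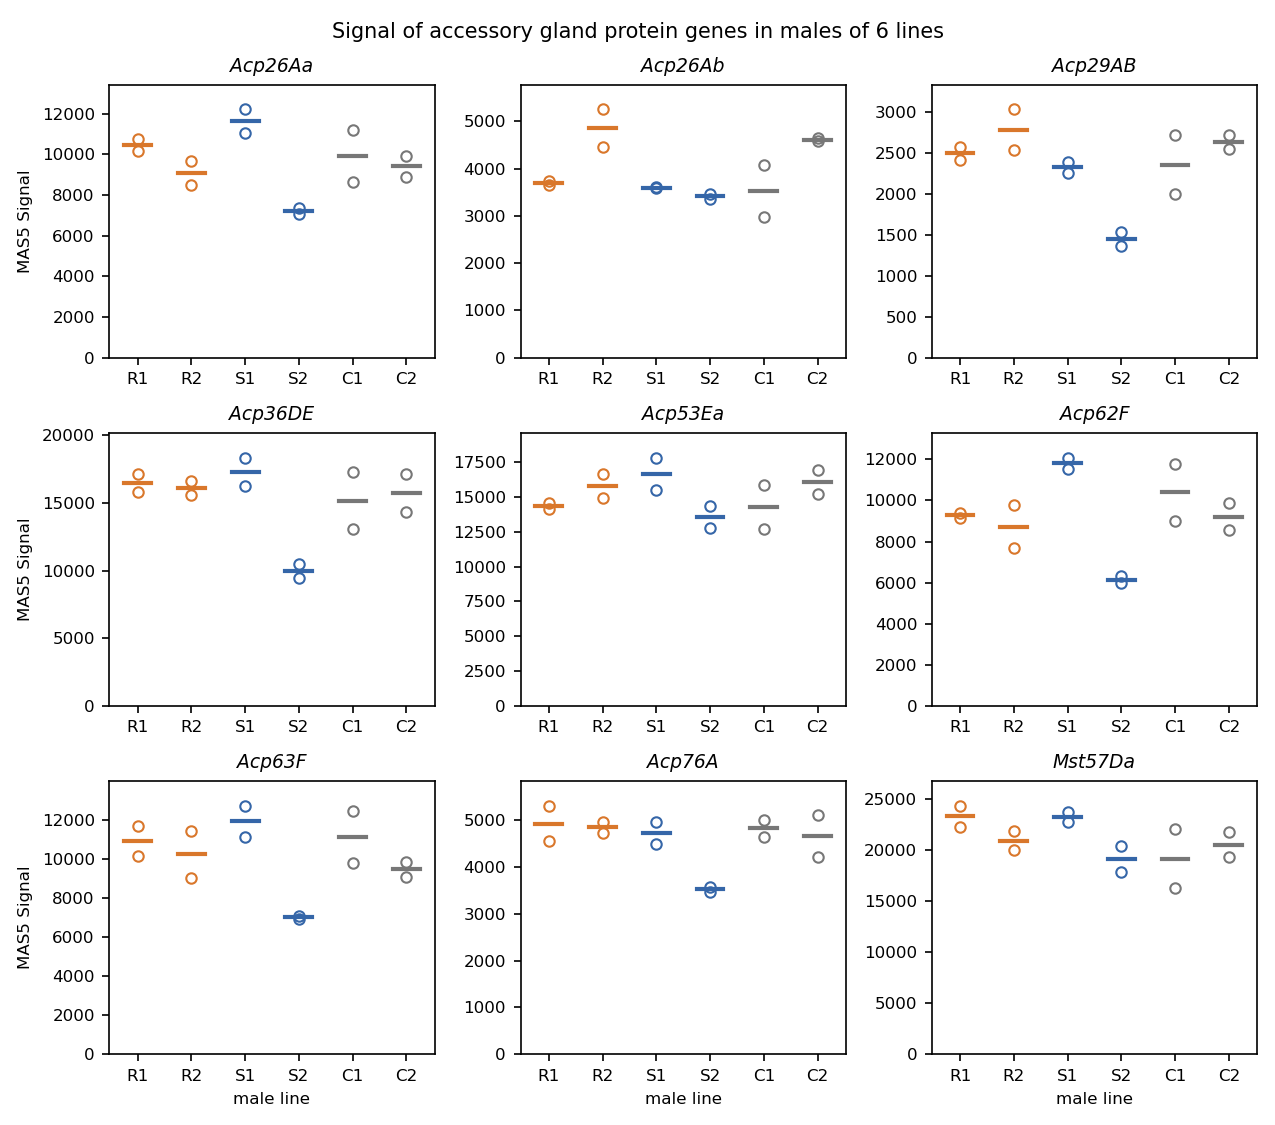
MAS5 Signal (linear axis from 0) of the 9 genes in males, 1 open circle per pool and a bar at the mean of the 2 pools of a line, with R1 and R2 resistant, S1 and S2 sensitive, and C1 and C2 control. Both S2 pools lie below the other 10 for *Acp26Aa*, *Acp29AB*, *Acp36DE*, *Acp62F*, *Acp63F* and *Acp76A*.

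The first comparison asked whether the 6 lines differed in males at all. At the threshold of the methods, an adjusted p under 0.001 for the line effect, 0 of the 9 genes were called, against 5.04% of all tested probe sets (597 of 11857). The methods used that threshold in an analysis of variance of linear Signal over both sexes, whereas the fit here was of log2 Signal in males. At an adjusted p under 0.05, 7 of 9 passed, against 28.1% of all tested probe sets. The smallest adjusted p-values were 0.003 for *Acp29AB*, 0.00603 for *Acp62F* and 0.011 for *Acp36DE*, and *Mst57Da* (0.352) and *Acp53Ea* (0.368) missed both thresholds (limma, moderated F test). For *Acp29AB* the SD between line means was 0.34 on the log2 scale and that between pools of a line 0.16, whereas for *Acp53Ea* the values were 0.12 and 0.14. Over all tested probe sets the medians of these SDs were 0.19 between lines and 0.16 between pools. S2 was the lowest line for 8 of the 9 genes, *Mst57Da* being the exception, and for 26.6% of all tested probe sets.

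Because no line effect passed 0.001, no difference between selection groups was called by the 2 steps of the methods for any of the 9 genes. By that rule 2.50% of tested probe sets were called higher and 1.49% lower in resistant than in sensitive males. The shares were 1.74% higher and 1.67% lower for resistant against control, and 1.27% higher and 2.50% lower for sensitive against control. Between lines of 1 group they were 1.66% higher and 1.48% lower for R1 against R2, 2.03% and 1.87% for S1 against S2, and 1.80% and 1.30% for C1 against C2, and none of the 9 genes was among them. The contrast by itself, with p adjusted over all tested probe sets, found *Acp29AB* 0.52 higher on the log2 scale in resistant than in sensitive males (SE 0.0992, adjusted p = 0.00414, limma), or 1.43-fold. It was the only 1 of the 9 below 0.05, where 8.52% of tested probe sets were called higher and 5.28% lower. All 9 differences were above 0, with a median of 0.20 against 0.03 over all tested probe sets, but the shared sign rested on S2. With S1 as the only sensitive line, 3 of the 9 were above 0 (*Acp26Ab*, *Acp29AB* and *Acp76A*) and 6 below, with a median of -0.08 against 0.01 over all tested probe sets. *Acp36DE* (0.31, adjusted p = 0.0665), *Acp26Ab* (0.27, adjusted p = 0.0766) and *Acp76A* (0.26, adjusted p = 0.0582) came next and did not pass in limma. Sensitive males had 0.43 less *Acp29AB* than control males on the log2 scale (log2 difference -0.43, SE 0.0992, adjusted p = 0.0156, limma), and no other gene passed there, where 3.62% of tested probe sets were called higher and 6.88% lower. Between resistant and control males the adjusted p was 0.406 or more for all 9 genes, where 2.74% of tested probe sets were called higher and 3.53% lower. The 95% intervals of those 9 differences reached down to -0.34 (*Acp62F*) and up to 0.39 (*Mst57Da*), so differences of that size lie within the error.

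These contrasts weigh the spread between pools, not between lines, and the size and the call in *Acp29AB* rested on S2. Without S2 its difference between resistant and sensitive males was 0.18 (adjusted p = 0.445, limma) and that between sensitive and control males -0.09 (adjusted p = 0.717). With line as a random block the adjusted p was 0.388 and 0.627, and with 1 mean per line 0.735 and 0.901. An exact permutation of 2 lines against 2 cannot give a two-sided p below 0.333. All 4 resistant pools lay above all 4 sensitive pools for 2 of the 9 genes, *Acp26Ab* and *Acp29AB*, against 6.71% of all tested probe sets, and for 0 of 9 were they all below, against 3.81%. Resistant and control pools overlapped for all 9, where 3.64% of tested probe sets had all resistant pools above and 3.68% all below. So did sensitive and control pools, where the shares were 2.67% above and 5.55% below.

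**Figure D3:**
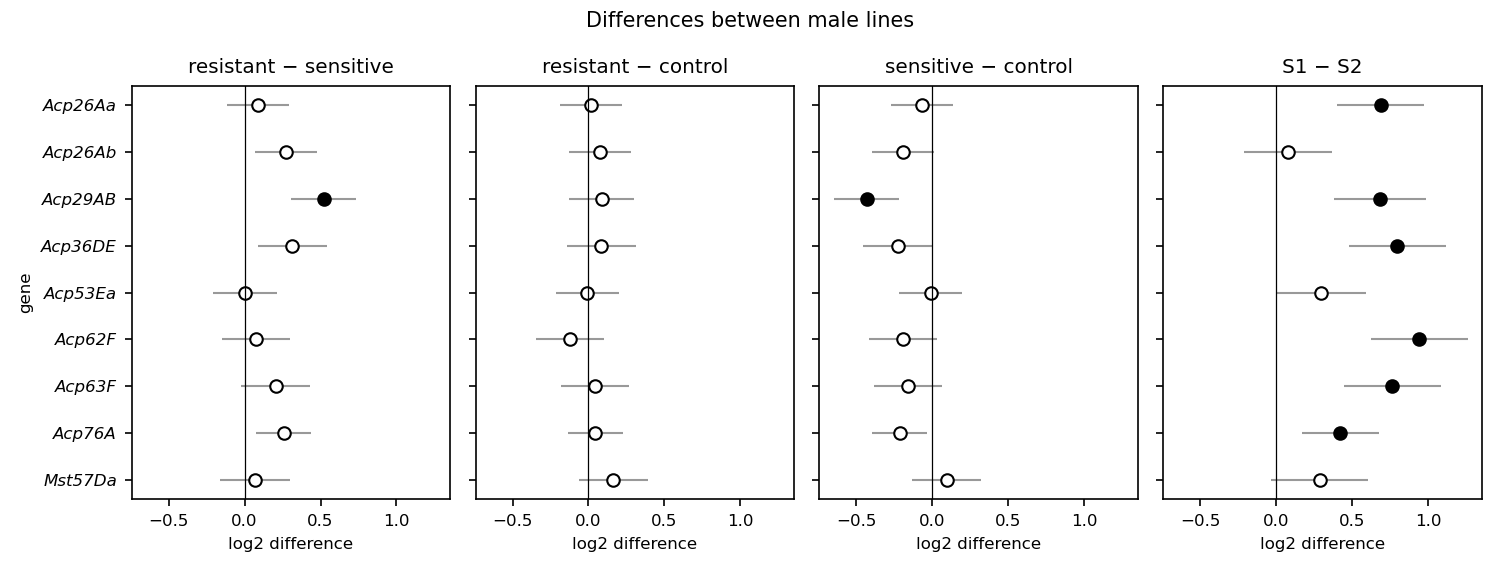
Log2 differences between male groups for the 9 genes, with 95% intervals of the limma fit, from left to right resistant minus sensitive, resistant minus control, sensitive minus control and S1 minus S2. Filled points have an adjusted p under 0.05 over all tested probe sets, which holds for *Acp29AB* in resistant minus sensitive and in sensitive minus control, for no gene in resistant minus control and for 6 genes in S1 minus S2.

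Lines of 1 selection group were compared next. S1 exceeded S2 in males for 6 of the 9 genes at an adjusted p of the contrast under 0.05 (limma), against 7.81% of tested probe sets called higher and 6.90% lower. *Acp62F*, the trypsin inhibitor, was 0.94 higher in S1 than in S2 (SE 0.146, adjusted p = 0.00102), or 1.92-fold. *Acp36DE*, the sperm storage protein, was 0.80 higher (SE 0.148, adjusted p = 0.00331), and ovulin 0.69 (*Acp26Aa*, SE 0.133, adjusted p = 0.00429). *Acp63F* (0.76), *Acp29AB* (0.68) and *Acp76A* (0.42) also rose, with adjusted p-values of 0.0042, 0.00618 and 0.0313. For *Acp53Ea* (0.30), *Mst57Da* (0.28) and *Acp26Ab* (0.08) the difference did not pass, and the intervals ran from 0.00 to 0.59, from -0.04 to 0.61 and from -0.21 to 0.37. Neither R1 against R2 (3.77% of tested probe sets called higher, 3.11% lower) nor C1 against C2 (2.46% and 1.74%) gave an adjusted p under 0.05 for any of the 9. The call for *Acp76A* did not outlast the loss of a pool of S1 or S2, with adjusted p-values of 0.0522 to 0.187 (limma), and *Acp29AB* stood at 0.0501 without S1 pool 2 and at 0.0634 without S2 pool 1. In a fit of both sexes together none of the 6 passed, the lowest adjusted p being 0.18. That fit estimates 1 spread from male and female pools, and the female values of these genes lie near the bottom of the scale.

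Within the first pair of lines, R1 against S1, no gene passed (lowest adjusted p = 0.16, *Acp62F*, log2 difference -0.35), where 6.01% of tested probe sets were called higher and 4.22% lower. Within the second pair, R2 against S2, 6 of 9 were higher in R2 at an adjusted p under 0.05 (limma), against 9.05% of tested probe sets called higher and 6.77% lower. They were *Acp29AB* (log2 difference 0.94, adjusted p = 8.08e-04), *Acp36DE* (0.70), *Acp63F* (0.54), *Acp26Ab* (0.50), *Acp62F* (0.50) and *Acp76A* (0.46), the other adjusted p-values being 0.00688 to 0.0369. *Acp26Ab* joined this set although it did not part S1 from S2. The difference between the 2 pairs of lines was itself called for 3 of the 9 genes, *Acp29AB*, *Acp36DE* and *Acp62F*, against 14.0% of tested probe sets (limma, adjusted p of 0.0158, 0.0294 and 0.0181).

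Set against the mean of the other 5 lines, a comparison chosen after the values were seen and therefore given without a test, S2 had 57.8% of the Signal for *Acp29AB*, 61.8% for *Acp36DE*, 62.8% for *Acp62F*, 65.8% for *Acp63F*, 72.0% for *Acp26Aa* and 73.6% for *Acp76A*. For these 6 of 9 genes both S2 pools lay below the other 10 male pools, against 9.84% of all tested probe sets. The other 3 genes had 85.1% (*Acp26Ab*), 88.1% (*Acp53Ea*) and 89.5% (*Mst57Da*) of the level in the other lines. The median of the 9 genes was -0.47 on the log2 scale and that of all tested probe sets -0.04. For no gene of the 9 were both pools of any other line below, or both above, the remaining 10. Over all tested probe sets the share for each of those 5 lines was 2.13% to 4.93% below and 3.23% to 5.63% above. A count of 0 of 9 lies near those shares.

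The other seminal fluid genes were read from lists of named genes. Among 8 other accessory gland proteins, S2 was the lowest line for 6, against 26.6% of all tested probe sets. *Acp95EF*, among those 6, was also expressed in females, at 68.5 to 133.4, so its Signal in whole males need not come from the gland. The line effect was called for 2 of the 8, against 5.04%. The S2 pools lay below all others for 1, *Acp32CD*, against 9.84%. This gene had a called line effect (adjusted p = 3.21e-04, limma), with 3088 and 3349 in S2, 3963 and 4138 in S1, and 5031 to 7194 in the 4 resistant pools against 3777 to 6204 in the 4 control pools. Its resistant minus sensitive difference was 0.77 on the log2 scale (SE 0.0896, adjusted p = 1.52e-04). The other called gene of the list was *Acp53C14c* (adjusted p = 3.03e-04), the neighbour of *Acp53Ea*, with 897 and 985 in S2 and 843 and 888 in C2 against 1147 to 2007 in the other 4 lines. Sex peptide itself, the peptide that drives the mating response of females, was at 80.7% in S2 of its level in the other lines, and its line effect did not pass (*SP*, adjusted p = 0.131, limma).

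The sex peptide network binds sex peptide to sperm in the female tract. Among 11 of its genes both S2 pools lay below all others for 6, against 9.84% of all tested probe sets. The line effect reached an adjusted p under 0.001 for 1, against 5.04% (limma). That gene was *Sems*, the protease seminase (adjusted p = 6.71e-04, limma), with 780 and 454 in S2 against 1467 to 2106 in the other 10 male pools. *Esp*, *hdly* and *frma*, which act in the female, were also expressed in females here and were not among the 6. Among 8 serpins of the seminal fluid, S2 lay below all others for 7, against 9.84% of all tested probe sets. The line effect passed for 3, *Spn28F*, *Spn28Da* and *Spn28B*, against 5.04%. *Spn28F* had 3220 and 3139 in S2, 4904 and 5387 in S1, and 6939 to 7704 in resistant against 6330 to 9892 in control pools, so both sensitive lines were below all others (resistant minus sensitive 0.86, SE 0.0852, adjusted p = 5.05e-05, limma). For *Spn28B* (1.06) and *Spn28Da* (0.69), too, all sensitive pools lay below every resistant and control pool.

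The odorant-binding proteins of the seminal fluid were less uniform, and some were also expressed in females. The highest female Signal was 2555 for *Obp56e*, 1016 for *Obp56g* and 128 for *Obp8a*. Their Signal in whole males need not come from the male tract alone. S2 pools lay below all others for 2 of 7, against 9.84% of all tested probe sets. The line effect was called for 2, against 5.04%, and neither gene set S2 apart from the other 5 lines. *Obp51a* had 1954 and 2368 in R1 against 5860 to 8124 in the other 10 male pools (adjusted p = 2.26e-05, limma). *Obp8a* had 111.8 to 185.2 in R2, S2 and C2 against 281.6 to 332.2 in R1, S1 and C1 (adjusted p = 3.45e-04), so the 3 lines numbered 2 lay below the 3 numbered 1. Among 5 regulators of the gland, 1 had a called line effect, against 5.04% of all tested probe sets. It was *wit*, a receptor of bone morphogenetic proteins, with 221.8 and 194.1 in S2 against 443.9 to 670.3 in the other male pools (adjusted p = 3.29e-05, limma). This gene is used in many tissues, and its lowest female Signal was 113.9.

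**Figure D4:**
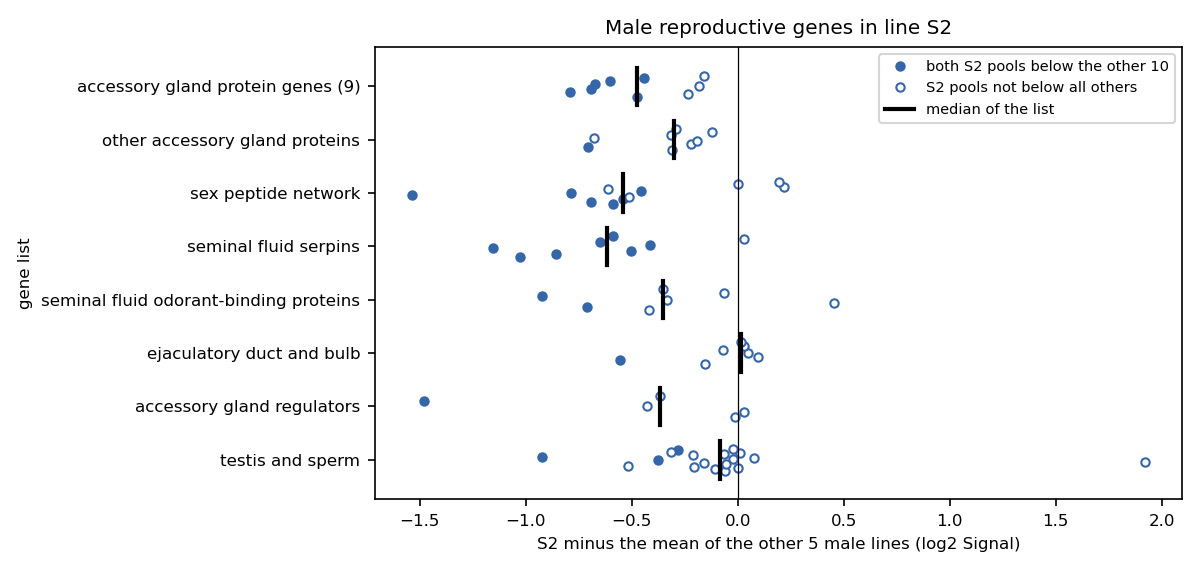
Log2 Signal of S2 minus the mean of the other 5 male lines, 1 point per gene, with a bar at the median of each list. The top row holds the 9 accessory gland protein genes. The rows below hold 7 other lists of genes named for male reproduction, some of which were also expressed in females. Filled points mark genes whose 2 S2 pools lie below the other 10 male pools, which are 6 of 9 in the top row, 7 of 8 among serpins and 1 of 7 among duct and bulb genes. The share over all tested probe sets was 9.84%.

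Genes listed for other male tissues were not all lower in S2. For 7 genes of the ejaculatory duct and bulb, the parts of the tract that add their own seminal proteins, the median in S2 was 0.01 above the other lines on the log2 scale, and the summed Signal was 66167 and 77933 in S2 against 64849 to 84706 in the other 10 pools. *Acph-1*, whose value is that median, *Gld* and *EbpIII* were also expressed in females, with lowest Signals of 1077, 120.4 and 11305. Their Signal in whole males need not come from the tract, so the median and sum do not describe the tract alone. *Ebp*, *EbpII* and *EbpIII*, genes named for the bulb, stood at 103.5%, 95.3% and 101.9% of their level in the other lines. *Anp*, an antibacterial peptide of the duct, stood at 68.0%, and *Dup99B* of the same list at 89.85%. For 18 testis and sperm genes the median was -0.09, and the sum was 89932 and 99654 in S2 against 80916 to 111983 elsewhere. S2 lay below all others for 3 of the 18, against 9.84% of all tested probe sets. The line effect was called for 1 of the 18, against 5.04%, and that gene went the other way. *dj*, which encodes a protein of the sperm tail, had 4169 and 4248 in S2 against 541.9 to 2534 in the other male pools (adjusted p = 1.03e-06, limma). The sum over the 9 accessory gland protein genes was 68514 and 74172 in S2 against 79089 to 107843.

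Flight muscle markers differed widely between lines. The line effect had an adjusted p under 0.05 for 4 of 4 such genes and under 0.001 for 0 (limma), against 28.1% and 5.04% of all tested probe sets. Their sum was 47984 and 69234 in S1, the line with the highest level of 5 of the 9 accessory gland genes, 24865 and 20539 in S2, and 16571 to 35168 in the resistant against 19692 to 32095 in the control pools. S1 exceeded S2 by 2.07 in *fln*, flightin of the flight muscle (SE 0.596, adjusted p = 0.035, limma), beside the differences of 0.42 to 0.94 in the 6 accessory gland genes. The part of muscle content in those differences was not tested. Of the yolk protein list, markers of females, *fit*, a transcript of the female fat body, had 231.6 to 281.3 in resistant, 5.50 to 81.4 in sensitive and 141.2 to 173.8 in control males (adjusted p = 6.66e-08), and the sum over the list in males was 124 to 484, against a lowest female value of 15206 for *Yp1* alone. No male pool thus held yolk protein transcripts at a female level.

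Pools of 1 line could shift together over the 9 genes. In C1, pool 2 exceeded pool 1 for all 9, with a median of 0.38 on the log2 scale against 0.04 over all tested probe sets. In R2, pool 2 was below pool 1 for all 9 (median -0.19), and in S1 it was above for all 9 (median 0.14). The mean deviation of the testis list in C1 was 0.16 in pool 2 and -0.23 in pool 1. Without C1 pool 1 or without C1 pool 2, the line effect of *Acp29AB* passed 0.001 (adjusted p = 3.21e-04 and 3.64e-04, limma).

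The 9 genes were correlated over the 12 male pools, with r for the 36 pairs from 0.17 to 0.96 and a median of 0.70. These points share their pool of flies, the scaling of the array and the low level of S2, so the values are given as a description. The highest value joined *Acp26Aa* and *Acp62F* (0.96). The lowest joined the 2 neighbours *Acp26Aa* and *Acp26Ab* (0.17), and over the 6 line means the value was -0.01. *Acp26Ab* was also the least like the rest, with a median r of 0.35 with the other 8 genes, against 0.87 for *Acp36DE*. In the cluster on arm 2R, *Acp53Ea* had r = 0.77 with *Acp53C14b*, 0.64 with *Acp53C14a* and 0.37 with *Acp53C14c*. *Mst57Da* had r = 0.87 with *Mst57Dc*, a member of the same cluster on arm 3R. Gene order was read from the annotation of RefSeq Release 6.

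**Figure D5:**
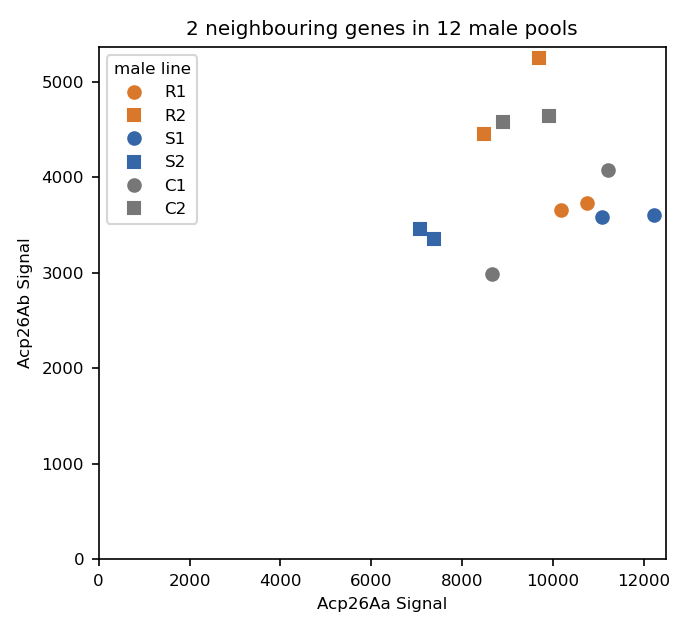
MAS5 Signal of *Acp26Ab* against that of *Acp26Aa* in 12 male pools, 1 point per pool, with circles for lines numbered 1 and squares for lines numbered 2, both axes linear from 0. R2 and C2 are the highest in *Acp26Ab*, S1 the highest in *Acp26Aa*, and the S2 pools the lowest in *Acp26Aa*, with r = 0.17 over the 12 pools.

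Probe sets were also ranked by their r with single genes over the 12 male pools. The ranking took 10570 tested probe sets with 1 named gene and left out the accessory gland protein genes chosen at the outset. Those most like *Acp29AB* were *CG42789* (r = 0.97), *Spn75F*, a serpin of the seminal fluid (0.97), and *CG12828* (0.96). Those most like *Acp62F* were *maf-S*, a small Maf transcription factor (0.95), *TpnC41C*, a troponin C of muscle (0.93), and *Mlp60A*, a muscle LIM protein (0.92). *CG11815* (0.96), *CG1578* (0.96) and *CG18418* (0.95) followed *Acp36DE* most closely, and *CG15882* (0.94), *CG42268* (0.93) and the calcium pump *SPoCk* (0.93) followed *Acp63F*. *Acp26Aa*, which was left out, had r = 0.96 with *Acp62F*, higher than any partner named for that gene, and 0.93 with *Acp63F*. The partners named for the 4 genes did not repeat among them.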

How the data were processed

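The titles of the 24 arrays gave line, sex and pool. The deposited values are a linear intensity for each probe set, the Signal of MAS5, which the authors computed from Affymetrix Drosophila 2.0 arrays and scaled to 1 target on each array. In place of detection calls, a probe set was tested where Signal reached 50 on 12 or more of 24 arrays. Of 18769 probe sets, 13647 were paired with 1 gene, 402 with several and 4720 with none. Signal was floored at 1 (16 of 142284 male values) and log2 transformed. The 12 male arrays were fitted with R 4.3.3 and limma 3.58.1 (1 mean per line, eBayes with trend, median prior df 6.61), with Benjamini-Hochberg adjustment over 11857 probe sets. A contrast was called where the line effect had an adjusted p under 0.001 and the contrast p was under 0.05; the adjusted p of the contrast alone is also given. Sexes were compared in a fit of 24 arrays with 12 means. Pools were separate collections of flies of a line, so p-values measure the spread between pools. The number of arrays limits the precision. Beside the 10 genes, up to 4 genes of each list with a called line effect were named by smallest adjusted p, as were the 3 probe sets most like each of the 4 genes with the smallest line effect p. Other genes were named with their values known. The genes and lists were chosen with earlier results of these data known. The fit was tested on simulated data. Scaling, filter, variance model, threshold and samples were varied, and the effect is given at the end.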

Additional observations from a re-analysis of the deposited data

Results flagged for a closer look

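For 3 of the 9 genes the difference between resistant and sensitive males was itself different in the 2 pairs of lines at an adjusted p under 0.05 (limma, difference of R1 minus S1 and R2 minus S2), against 14.0% of all tested probe sets. For *Acp29AB* the difference was 0.10 in the first pair and 0.94 in the second, a gap of -0.83 (SE 0.199, adjusted p = 0.0158). For *Acp36DE* it was -0.07 and 0.70, a gap of -0.77 (SE 0.209, adjusted p = 0.0294). For *Acp62F* it was -0.35 and 0.50, a gap of -0.84 (SE 0.207, adjusted p = 0.0181). No pool was set apart from the other 3 of its selection group by Dixon's criterion in the 27 groups checked. That criterion sets 1 pool against 3, so it cannot mark 2 pools of a line that lie apart together, such as those of S2.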

How the results depend on the processing

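Counts below are of the 9 genes, and under the varied settings most counts of contrasts stand without a share over all tested probe sets. By the rule of 2 steps, 0 were called in each comparison of lines. After quantile normalization 1 was called in the line effect, in resistant minus sensitive, in sensitive minus control and in S1 minus S2. With the line effect taken at an adjusted p under 0.05, 7 passed it, and 4, 3, 1, 6 and 1 were called in resistant minus sensitive, sensitive minus control, R1 minus R2, S1 minus S2 and C1 minus C2. Leaving out 1 pool at a time gave 0 to 1 in each of these and in resistant minus control, except R1 minus R2 (0). Over all tested probe sets the line effect, 597 as given, was called for 301 to 771 without 1 pool, 148 with no variance trend, 18 in an analysis of variance on linear Signal with line as the fixed effect, in males alone, 3333 at 0.05 and 239 without S2, an alternative added after the data were seen.

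By the adjusted p of the contrast alone, resistant minus sensitive (1 as given) held 3 after quantile normalization, 2 with the replicate block, and 0 with both sexes in the fit, in that analysis of variance, with line as a random block, with 1 mean per line and without S2. Sensitive minus control (1 as given) held 5 after quantile normalization, and 0 under the same 5 settings and with no variance trend. S1 minus S2 (6 as given) held 0 with both sexes in the fit and 2 in the analysis of variance. Without 1 pool the counts were 1 to 4, 0 to 3 and 4 to 6, and 0 to 1 for R1 minus R2 and C1 minus C2. The replicate block treats pool numbers as pairs. Deviations of same-numbered pools correlated at -0.10 to 0.18 over 15 pairs of male lines, 1 of them over 0.1, so the numbers do not pair the pools, and the block changed no other count by over 1.5 times. No difference that passed in resistant minus sensitive, sensitive minus control or S1 minus S2 changed its sign under these settings, and R2 minus S2 and the difference between pairs of lines were not run under them. The cause of these changes was not tested.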
